A study of Homo sapiens with 21 samples.

Results

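The 10 genes described here encode kinases, a kinase partner (ATRIP) and phosphatases of the DNA damage checkpoint, which controls cyclin-dependent kinases. These genes are ATM, ATR, ATRIP, CHEK1, CHEK2, WEE1, PKMYT1, CDC25A, CDC25B and CDC25C. They were chosen by name, all 10 were found among the 23368 genes listed, and all 10 were among the 19694 genes that varied and were tested. RNA was sequenced from hTERT-HPNE cells, a nontransformed human pancreatic line immortalized with telomerase and kept in medium with EGF and puromycin, in 7 groups of 3 biological replicates. The groups were untreated cells, cells 4, 8 or 24 h after 300 uM H2O2, which causes oxidative stress, and cells 4, 8 or 24 h after 400 ng/ml neocarzinostatin (NCS), a radiomimetic drug that breaks both DNA strands. The untreated libraries carry H2O2 at 0 h in their titles and served as the control for both treatments, so the comparisons with untreated cells share the same 3 libraries. No untreated cells were sampled at 4, 8 or 24 h. In comparisons with untreated cells and between times, treatment and time in culture therefore cannot be told apart. The purpose of the experiment was to compare gene expression over time between the 2 stresses.

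ATM is recruited to double-strand breaks, and ATR, held by its partner ATRIP, to single-stranded DNA at stalled forks and resected ends. ATM chiefly activates CHEK2, and ATR chiefly activates CHEK1. The checkpoint kinases phosphorylate the CDC25 phosphatases, which keeps them from removing the inhibitory phosphates that WEE1 and PKMYT1 place on CDK1 and, in the case of WEE1, also on CDK2. The balance between WEE1 and PKMYT1 on one side and CDC25A, CDC25B and CDC25C on the other sets entry into S phase and mitosis. Most of this control acts on the proteins, by phosphorylation and degradation, and only transcript levels were measured here.

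Values are rLog values, a log2 scale on which the authors' software normalized the counts for library size and drew small counts towards the mean. A difference on this scale can therefore understate the underlying change, and levels of different genes cannot be compared because transcript length was not divided out. Differences were tested with limma in 1 fit of all 7 groups, adjusted by the Benjamini-Hochberg method over all 19694 genes. A difference passed at an adjusted p-value under 0.05, and a stricter call, differential expression, also needed an absolute log2 difference over 1. For a single gene, 3 libraries against 3 cannot reach a two-sided exact permutation p below 0.1. The deposited values hold no counts, so the depth of the libraries is unknown. Library medians lay between 7.14 and 7.19. One library stood apart: H2O2 8 h replicate 2 lay at a distance of 14.7 and 15.1 from the other 2 replicates of its group, while replicates otherwise lay 8.9 to 11.4 apart over all tested genes. The markers of the line, NES, VIM, CD44 and THY1, had median values of 12.06, 17.05, 13.69 and 9.25. Of the duct markers, KRT7 and SOX9 were at 6.93 and 6.07, while KRT19 and CFTR were near the bottom of the scale, at 0.60 and -1.34. The acinar and islet markers, 4 each, had medians of 0 or below. Among leukocyte markers CD3E was listed at 0 in every library and PTPRC was at 0.93, but CD68, a lysosomal protein that is not restricted to leukocytes, was at 10.07. The endothelial markers CDH5, PECAM1 and VWF were at -2.04, 2.06 and 3.13.

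Transcripts of 8 of the 10 checkpoint genes were lower at 24 h after either treatment, and lower then than at 4 or 8 h. The exceptions were ATM and ATR, whose differences in H2O2 were larger at 4 and 8 h than at 24 h. In H2O2-treated cells, 7 of the 10 genes were lower than in untreated cells at 4 h (19.7% of all tested genes were lower). All 10 were lower by 8 h (18.6%), and 9 were still lower by 24 h (19.9%). After NCS, 6 were lower by 4 h (9.72% of all tested genes), 8 by 8 h (13.3%) and 8 by 24 h (18.4%). The only gene among the 10 that passed as higher than untreated cells in any of these 6 comparisons was PKMYT1, in NCS at 4 h, where 7.47% of all tested genes were higher. The median difference of the 10 genes in H2O2 went from -0.35 at 4 h over -0.46 to -0.92 at 24 h, and the NCS groups had -0.20, -0.43 and -0.92. The median over all tested genes lay within 0.004 of 0 in each of them. By the stricter limit, WEE1, PKMYT1, CDC25A and CDC25C were differentially expressed in H2O2 at 24 h, 4 of 10 against 1.29% of all tested genes. In NCS these 4 and CDC25B were differentially expressed at 24 h, 5 of 10 against 1.37%, and CDC25C alone at 8 h, 1 of 10 against 0.274%. ATM and ATR had the smallest absolute differences of the 10 genes at 24 h in both treatments.

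**Figure D1:**
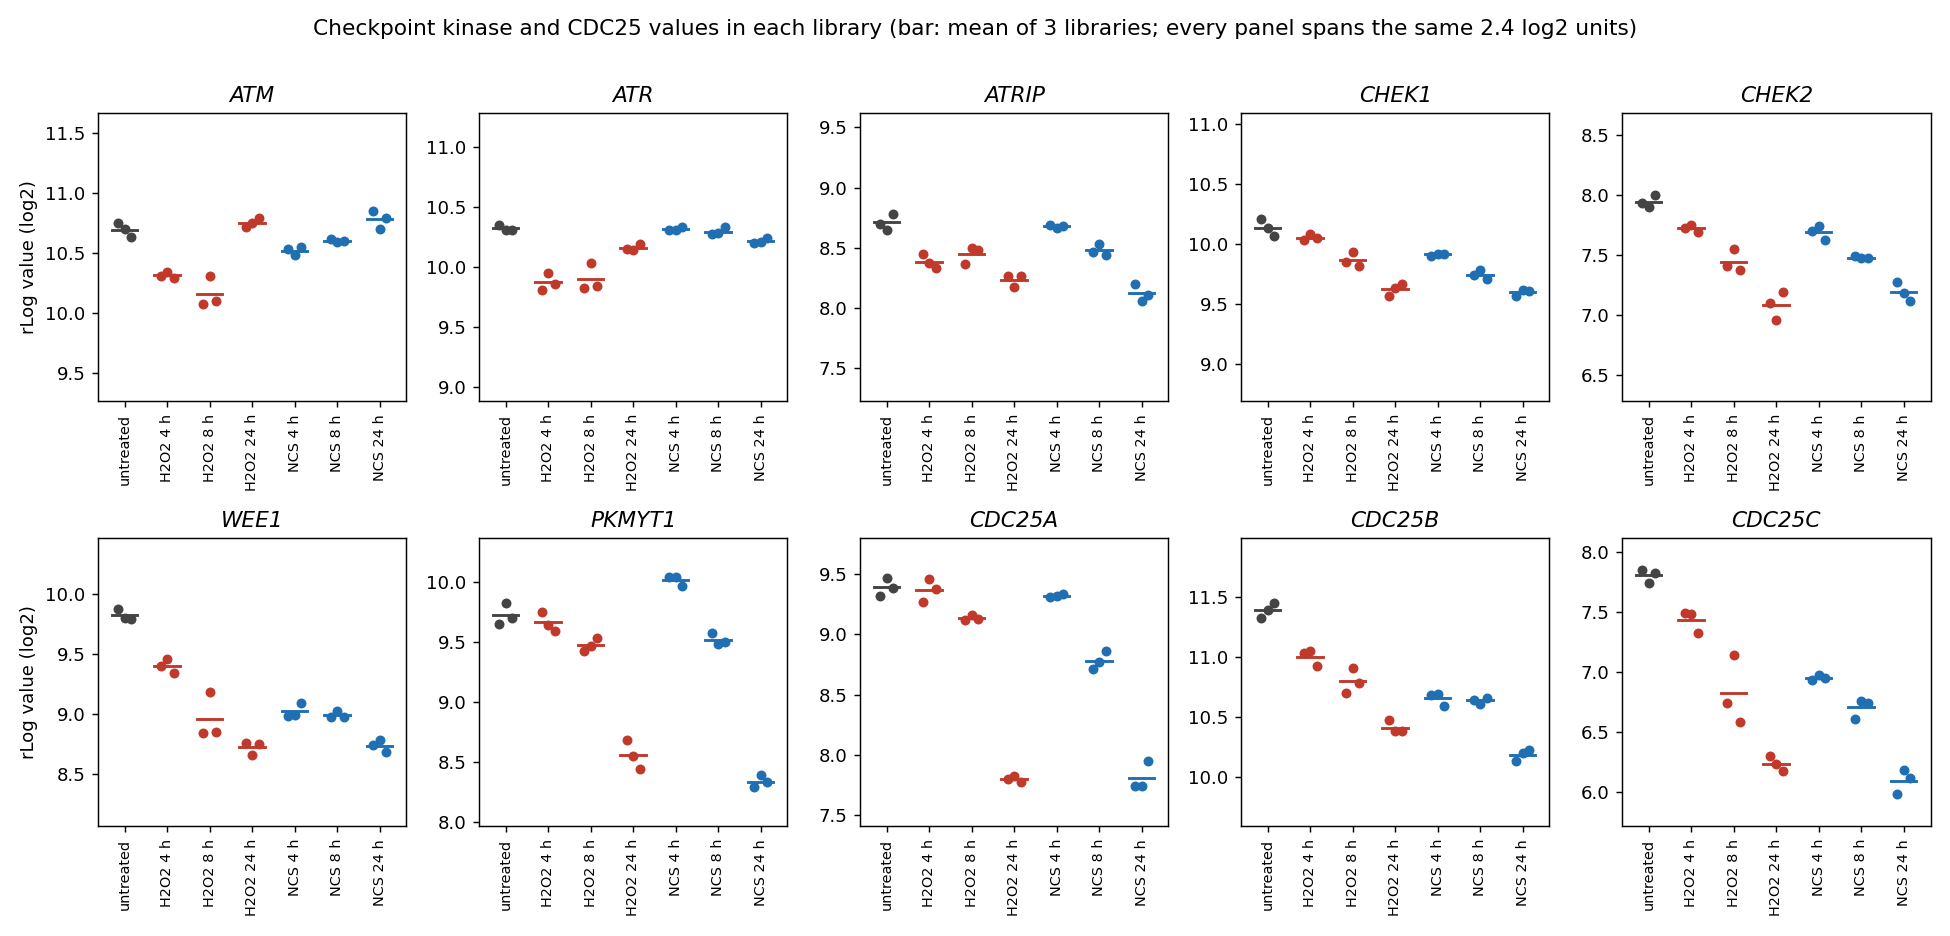
The rLog value (log2) of each of the 10 genes in each of the 21 libraries, with 1 point per library and a bar at the mean of 3; untreated cells are grey, H2O2 red and NCS blue. CDC25A stayed between 9.27 and 9.47 until 4 h and was at 7.95 or lower in all 6 libraries at 24 h, whereas ATM was lowest in H2O2 at 4 and 8 h and back between 10.70 and 10.85 in all 6 libraries at 24 h.

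ATM dipped early in H2O2 and was back at the untreated level at 24 h. Its values in untreated cells were 10.75, 10.70 and 10.63, and in H2O2 they were 10.31, 10.34 and 10.29 at 4 h, 10.08, 10.31 and 10.10 at 8 h, then 10.72, 10.75 and 10.79 at 24 h. In NCS, ATM was 10.53, 10.48 and 10.55 at 4 h, 10.62, 10.59 and 10.60 at 8 h, then 10.85, 10.70 and 10.79 at 24 h. The H2O2 libraries at 4 and 8 h thus lay below every other library, and the untreated libraries overlapped with those of both treatments at 24 h. The difference from untreated cells in H2O2 was -0.38 (SE 0.05, adjusted p = 3.64e-06) at 4 h and -0.53 (SE 0.05, adjusted p = 8.39e-08) at 8 h, or -0.61 without the H2O2 8 h replicate that stood apart. At 24 h it was 0.06 in H2O2 (95% interval -0.04 to 0.16) and 0.09 in NCS (-0.01 to 0.19), and neither passed. From 8 to 24 h ATM rose in H2O2 by 0.59 (adjusted p = 1.4e-08) and in NCS by 0.18 (adjusted p = 0.00761). The small fall in NCS at 4 h, -0.17, had an adjusted p of 0.018, and it did not pass without untreated replicate 1 (-0.15, adjusted p = 0.092), untreated replicate 2 (-0.17, adjusted p = 0.0518) or NCS 4 h replicate 2 (-0.15, adjusted p = 0.0782). The fall from 4 to 8 h in H2O2, -0.15, was likewise not past the threshold without H2O2 4 h replicate 2 (-0.14), H2O2 8 h replicate 1 (-0.11) or H2O2 8 h replicate 3 (-0.12), nor in a fit of only the 2 groups compared (-0.15, adjusted p = 0.133). In NCS at 8 h the difference of -0.09 (adjusted p = 0.211) passed with library medians aligned (-0.11, adjusted p = 0.0355).

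ATR, the kinase that answers to single-stranded DNA, fell in H2O2 and moved little in NCS. Its untreated values were 10.35, 10.31 and 10.31, and in H2O2 they were 9.81, 9.95 and 9.86 at 4 h, 9.82, 10.03 and 9.84 at 8 h, then 10.15, 10.14 and 10.19 at 24 h. In NCS all 9 libraries lay between 10.20 and 10.33, so that H2O2 at 4 and 8 h did not overlap with any NCS group. In H2O2 the difference from untreated cells was -0.45 (SE 0.04, adjusted p = 1.04e-07) at 4 h. It was still -0.43 (adjusted p = 2.8e-07) by 8 h, and -0.16 (adjusted p = 0.00448) remained by 24 h. In NCS it was -0.01, -0.03 and -0.11 at the 3 times, with adjusted p-values of 0.972, 0.751 and 0.0545. The last passed in a fit of only the groups compared (adjusted p = 0.00924) and among genes with a mean of at least 5 (adjusted p = 0.0241). The 95% interval at 4 h in NCS ran from -0.10 to 0.08, well short of the change in H2O2. By the GENCODE v29 annotation, 2048 of the 12496 exon bases of ATR overlap with a pseudogene on the opposite strand, AC109992.1. Their reads may not be fully separated.

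ATRIP, which carries ATR to RPA-coated DNA, was lower in both treatments at 24 h. Its untreated values were 8.70, 8.65 and 8.78. At 24 h they were 8.26, 8.17 and 8.26 in H2O2 and 8.20, 8.06 and 8.11 in NCS, with differences of -0.48 (SE 0.05, adjusted p = 1.05e-07) and -0.58 (SE 0.05, adjusted p = 8.19e-09). At 4 h the treatments parted: H2O2 libraries lay between 8.33 and 8.45 and NCS libraries between 8.66 and 8.69, inside the untreated range. In the annotation used here (GENCODE v29), 1515 of the 5431 exon bases of ATRIP also belong to TREX1, an exonuclease gene on the same strand, so reads of these genes may not be fully separated.

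The effector kinases CHEK1 and CHEK2 fell stepwise with time. CHEK1 ranged from 10.07 to 10.21 in untreated cells, from 10.03 to 10.08, 9.82 to 9.93 and 9.57 to 9.67 in H2O2 at 4, 8 and 24 h, and from 9.90 to 9.92, 9.71 to 9.78 and 9.57 to 9.62 in NCS. At 24 h the differences from untreated cells were -0.51 in H2O2 (SE 0.04, adjusted p = 1.14e-09) and -0.53 in NCS (SE 0.04, adjusted p = 7.41e-10). The early step in H2O2 was within the replicate spread, at -0.08 with an adjusted p of 0.0748, although it passed without untreated replicate 3 (-0.12, adjusted p = 0.0178) and with library medians aligned (-0.10, adjusted p = 0.0431). CHEK2 ranged from 7.90 to 8.00 in untreated cells, from 7.69 to 7.75, 7.37 to 7.55 and 6.96 to 7.19 in H2O2, and from 7.62 to 7.74, 7.47 to 7.49 and 7.12 to 7.27 in NCS. No treated library of CHEK2 overlapped with the untreated ones. At 24 h its difference from the untreated level was -0.86 in H2O2 (SE 0.06, adjusted p = 5.9e-10), and NCS gave -0.75 (SE 0.06, adjusted p = 4.48e-09). The annotation names 4 CHEK2 pseudogenes, and 301 of the 4493 exon bases of CHEK2 overlap with HSCB on the opposite strand, so reads of these genes may not be fully separated from those of CHEK2.

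WEE1 and PKMYT1, the kinases that inhibit CDKs, moved in opposite directions in NCS at 4 h and were both low at 24 h. WEE1 was 9.87, 9.80 and 9.79 in untreated cells. In H2O2 it was 9.40, 9.46 and 9.34 at 4 h, 8.84, 9.18 and 8.85 at 8 h, then 8.76, 8.66 and 8.75 at 24 h. In NCS it was already 8.98, 8.99 and 9.09 at 4 h, 8.97, 9.02 and 8.97 at 8 h, then 8.74, 8.78 and 8.68 at 24 h. Every treated library lay below every untreated one. The fall in NCS at 4 h, -0.80 (SE 0.07, adjusted p = 6.57e-08), was not followed by another before 8 h (8 h against 4 h, -0.03, adjusted p = 0.938). In H2O2 WEE1 went down in steps of -0.42 (adjusted p = 3.37e-05) to 4 h and -0.45 (adjusted p = 1.97e-05) from 4 to 8 h. The third step in H2O2, from 8 to 24 h, was -0.23 (adjusted p = 0.00828), or -0.12 (adjusted p = 0.0396) without H2O2 8 h replicate 2, and it did not pass in a fit of only the groups compared (-0.23, adjusted p = 0.12). At 24 h WEE1 differed from the untreated level by -1.10 after H2O2 and by -1.09 after NCS (SE 0.07 in both).

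PKMYT1, the membrane-bound relative of WEE1, was highest in NCS at 4 h. Its values were 9.65, 9.82 and 9.70 in untreated cells, 10.04, 10.04 and 9.96 in NCS at 4 h, and 9.75, 9.64 and 9.59 in H2O2 at 4 h. The NCS libraries thus lay above all others, by 0.29 over untreated cells (SE 0.06, adjusted p = 0.00107), while the H2O2 libraries overlapped with the untreated ones (-0.06, adjusted p = 0.424). At 8 h the values were 9.42, 9.46 and 9.53 in H2O2 and 9.57, 9.48 and 9.50 in NCS. At 24 h PKMYT1 was 8.68, 8.55 and 8.44 in H2O2 and 8.29, 8.39 and 8.33 in NCS, with differences from untreated cells of -1.17 (SE 0.06, adjusted p = 4.38e-12) and -1.39 (SE 0.06, adjusted p = 4.07e-13). Most of this fall took place after 8 h, with steps from 8 to 24 h of -0.91 (adjusted p = 3.34e-10) in H2O2 and -1.18 (adjusted p = 2.29e-11) in NCS. The smaller fall in NCS at 8 h, -0.21 (adjusted p = 0.0107), did not pass without untreated replicate 2 (-0.16, adjusted p = 0.0706). Exons of PKMYT1 overlap with PAQR4 and KREMEN2 on the opposite strand over 1233 and 360 of 5034 bases, and the strand setting of the counting is not given in the sources used here.

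The difference between WEE1 and PKMYT1 within a library is unaffected by a shift of all values of that library. WEE1 minus PKMYT1 was 0.10 ± 0.12 (SD, n = 3) in untreated cells and 0.40 ± 0.05 in NCS at 24 h. In H2O2 it was -0.26 ± 0.09, -0.51 ± 0.20 and 0.17 ± 0.13 at the 3 times. The 3 libraries of NCS at 4 h lay between -1.06 and -0.88, below all others. The change from untreated cells had an exact permutation p of 0.1, the smallest possible, in every treated group except H2O2 at 24 h, where it was 0.6. This pair of genes and the other pairs below were chosen after the values were seen.

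**Figure D2:**
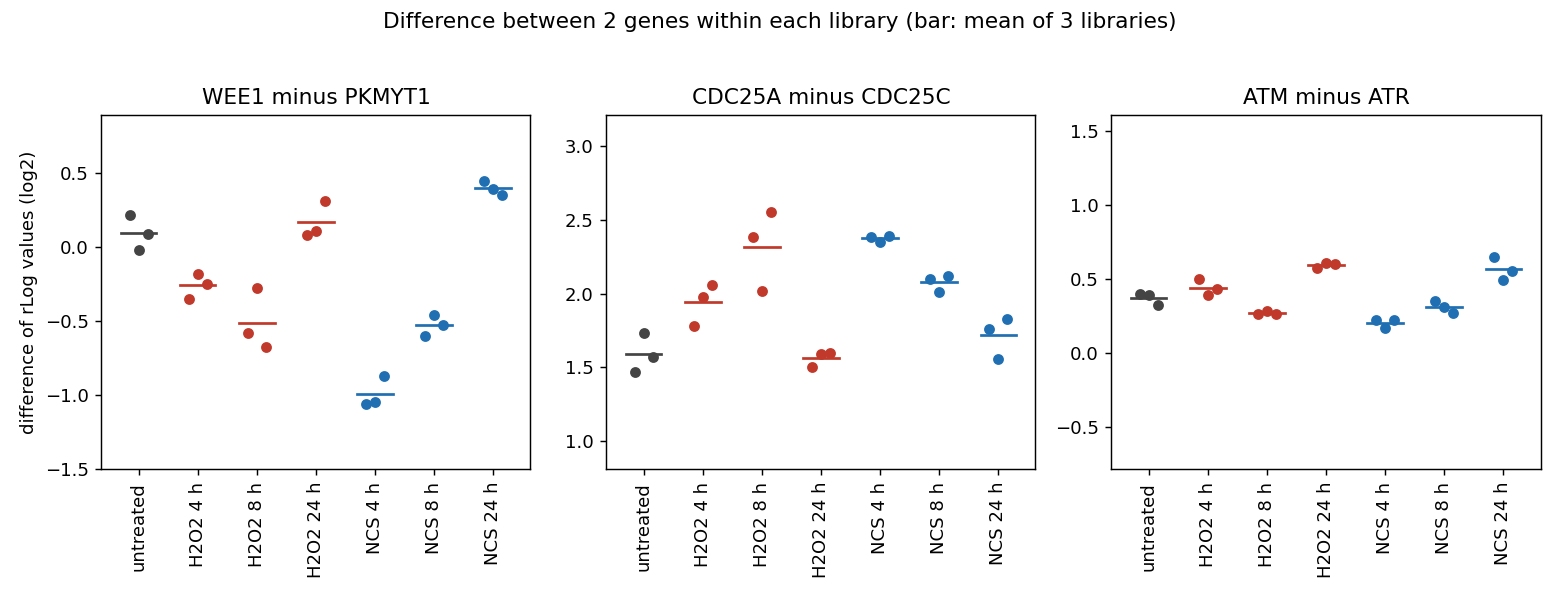
Difference between the rLog values (log2) of 2 genes within each library, for WEE1 minus PKMYT1, CDC25A minus CDC25C and ATM minus ATR, with 1 point per library and a bar at the mean of 3. WEE1 minus PKMYT1 was lowest in NCS at 4 h, between -1.06 and -0.88. CDC25A minus CDC25C was 1.59 in untreated cells, 2.37 in NCS at 4 h and 2.31 in H2O2 at 8 h. At 24 h it was 1.57 in H2O2 and 1.71 in NCS.

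Of the 3 CDC25 phosphatases, CDC25B and CDC25C passed as lower from 4 h on and CDC25A from 8 h on. CDC25A, which acts at the G1/S transition and in S phase as well as at mitosis, was 9.32, 9.47 and 9.39 in untreated cells. At 4 h it was 9.27, 9.46 and 9.38 in H2O2 and 9.31, 9.32 and 9.34 in NCS, overlapping with untreated cells in both. At 8 h it was 9.12, 9.16 and 9.13 in H2O2 and 8.71, 8.77 and 8.86 in NCS, and at 24 h 7.80, 7.82 and 7.77 in H2O2 and 7.74, 7.74 and 7.95 in NCS. The libraries at 24 h lay more than 1 log2 unit below all untreated ones. Early on, at 4 h, its difference was -0.02 in H2O2 (95% interval -0.14 to 0.10) and -0.07 in NCS (-0.19 to 0.05). At 24 h it was -1.59 (SE 0.06, adjusted p = 4.98e-14) and -1.58 (SE 0.06, adjusted p = 5.27e-14), and -1.34 of the change in H2O2 and -0.97 of that in NCS fell between 8 and 24 h.

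CDC25B and CDC25C, which promote mitotic entry, were lower at 4 h already. CDC25B was 11.32, 11.39 and 11.45 in untreated cells, 11.03, 11.05 and 10.92 in H2O2 at 4 h and 10.68, 10.69 and 10.59 in NCS at 4 h. At 24 h it was 10.47, 10.38 and 10.38 in H2O2 and 10.13, 10.20 and 10.22 in NCS. These groups did not overlap with each other or with untreated cells. After NCS, CDC25B differed from the untreated level by -0.73 (SE 0.05, adjusted p = 6e-09) at 4 h, by -0.75 at 8 h and by -1.20 (adjusted p = 5.22e-13) at 24 h. After H2O2 the differences were -0.38, -0.59 and -0.97 (adjusted p = 9.4e-12). CDC25C was 7.85, 7.74 and 7.82 in untreated cells and was lower in all 18 treated libraries. In H2O2 it was 7.49, 7.48 and 7.32 at 4 h, 6.74, 7.14 and 6.58 at 8 h, then 6.30, 6.23 and 6.17 at 24 h. In NCS it was 6.93, 6.97 and 6.95 at 4 h, 6.61, 6.76 and 6.74 at 8 h, then 5.98, 6.18 and 6.12 at 24 h. The value of 7.14 at 8 h belongs to the H2O2 replicate that stood apart. The difference of H2O2 at 8 h from untreated cells was -0.98 with this library and -1.15 without it, past the limit of 1 only in the latter case. At 24 h CDC25C differed from the untreated level by -1.57 after H2O2 (SE 0.10, adjusted p = 1.76e-10), and the NCS difference was -1.71 (SE 0.10, adjusted p = 5.72e-11). Exons of CDC25C overlap with FAM53C on the opposite strand over 293 of 3338 bases, so their reads may not be fully separated. CDC25A minus CDC25C within a library was 1.59 ± 0.14 (SD, n = 3) in untreated cells, 2.37 ± 0.03 in NCS at 4 h (exact permutation p = 0.1) and 1.71 ± 0.14 in NCS at 24 h (exact permutation p = 0.3).

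Promoter windows were matched for 8 of the 10 genes in RefSeq (GRCh38.p14), as 18 windows from 250 bases before to 50 bases after an annotated start. The files were aligned to hg19, and no value was assigned to a single start. Both strands of each window were searched for 3 short motifs found in promoters of cell cycle genes. They were the CHR, read as TTTGAA or in its second form TTCGAA, the CCAAT box, read as CCAAT, and the E2F motif. The E2F motif was read as TTTGGCG, with the allowed variants TTTCGCG and, further, TTTCCCG and, last, TTTGCCG. No matches overlapped within the windows of the 10 genes. The CHR was found for 3 of the 8 genes (ATM, CDC25B and CDC25C) and in 19.5% of all genes with windows. The CCAAT box was found for 7 of the 8, against 39.7% of all genes, and the E2F motif for 3 (ATR, CDC25A and CDC25B), against 10.4%. On average the 8 genes have more windows each than all 27305 genes, which have 35116. Counted by window, the CHR was in 4 of 18 against 16.4% of all windows, the CCAAT box in 13 against 34.6% and the E2F motif in 3 against 8.67%. Some windows of the same gene overlap, so a site can be counted more than once, as a CCAAT box of CHEK1 and the CHR of CDC25C were. These matches are descriptions of sequence and do not show binding. The stretch before the start of CDC25A overlaps with no annotated exon and is shown because this gene had one of the largest differences at 24 h. Capitals mark, in order, 2 CCAAT boxes on the opposite strand (ATTGG) and the E2F motif TTTGGCG, which begins 44 bases before the start. For CDC25B, CDC25C and ATM, sites of 30 bases around the CHR are shown, with the CHR in capitals, as the 3 genes with this match. For CDC25B and ATM, all 250 bases before the start of these windows lie in annotated exons of the same gene. For CDC25C, 108 of them lie in exons of CDC25C or FAM53C. Each of the 3 genes also has a window without the CHR. Whether the motifs go with the size of a difference was not tested.
CDC25A, chr3:48188418-48188667, minus strand: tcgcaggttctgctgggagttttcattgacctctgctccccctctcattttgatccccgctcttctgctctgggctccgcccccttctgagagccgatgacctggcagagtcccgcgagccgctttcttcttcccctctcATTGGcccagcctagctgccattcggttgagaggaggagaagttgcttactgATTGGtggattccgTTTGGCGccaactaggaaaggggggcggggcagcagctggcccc
CDC25B, chr20:3796260-3796289, plus strand: ctgctgttatttTTCGAAtatataaggagg
CDC25C, chr5:138331817-138331846, minus strand: gctggcggaaggTTTGAAtggtcaacgcct
ATM, chr11:108223035-108223064, plus strand: agtcacgcagggTTTGAAccggaagcggga

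The 2 stresses were compared directly at each time. At 4 h, 4 of the 10 genes were higher in H2O2 than in NCS (26.3% of all tested genes were) and 4 were lower (18.0%). The higher ones were CDC25C (0.48, SE 0.10, adjusted p = 0.000588), WEE1 (0.38, SE 0.07, adjusted p = 0.0001), CDC25B (0.35, SE 0.05, adjusted p = 1.5e-05) and CHEK1 (0.14, SE 0.04, adjusted p = 0.00406). The lower ones were ATR (-0.45, SE 0.04, adjusted p = 1.31e-07), PKMYT1 (-0.35, SE 0.06, adjusted p = 5.14e-05), ATRIP (-0.30, SE 0.05, adjusted p = 5.11e-05) and ATM (-0.21, SE 0.05, adjusted p = 0.00179). None of these 8 pairs of groups overlapped, compared with 50.1% of all tested genes without overlap. CHEK2 and CDC25A did not pass, with 95% intervals of -0.09 to 0.16 and -0.07 to 0.17.

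At 8 h, 3 genes were higher in H2O2 than in NCS (18.7% of all tested genes) and 2 lower (15.4%). CDC25A was higher by 0.35 (SE 0.06, adjusted p = 6.05e-05), CHEK1 by 0.12 (adjusted p = 0.0146) and CDC25B by 0.16 (adjusted p = 0.0189). ATM and ATR were lower, with differences of -0.44 (adjusted p = 1.38e-06) and -0.40 (adjusted p = 1.17e-06). Without H2O2 8 h replicate 2, CHEK1 was at 0.09 (adjusted p = 0.0789) and CDC25B at 0.10 (adjusted p = 0.115), and WEE1 passed as lower in H2O2 (-0.14, adjusted p = 0.016 against -0.03 with all libraries). CHEK1 also failed to pass without NCS 8 h replicate 3 (0.10, adjusted p = 0.0675), and CDC25B without NCS 8 h replicate 2 (0.14, adjusted p = 0.0705). In a fit of only these 2 groups neither passed, with adjusted p-values of 0.0702 and 0.0852. CDC25A, ATM and ATR passed with and without each library. At 24 h only CDC25B (0.23, SE 0.05, adjusted p = 0.00244) and PKMYT1 (0.22, SE 0.06, adjusted p = 0.008) differed, 2 of 10 higher in H2O2 (11.0% of all tested genes) and 0 lower (10.9%). PKMYT1 did not pass without H2O2 24 h replicate 1 (0.16, adjusted p = 0.0587) or with only the groups compared (0.22, adjusted p = 0.063). For the 8 other genes the 95% intervals at 24 h lay between -0.23 and 0.34. The interval was widest for CDC25C, from -0.07 to 0.34, and was -0.13 to 0.07 for ATM and -0.14 to 0.13 for WEE1.

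**Figure D3:**
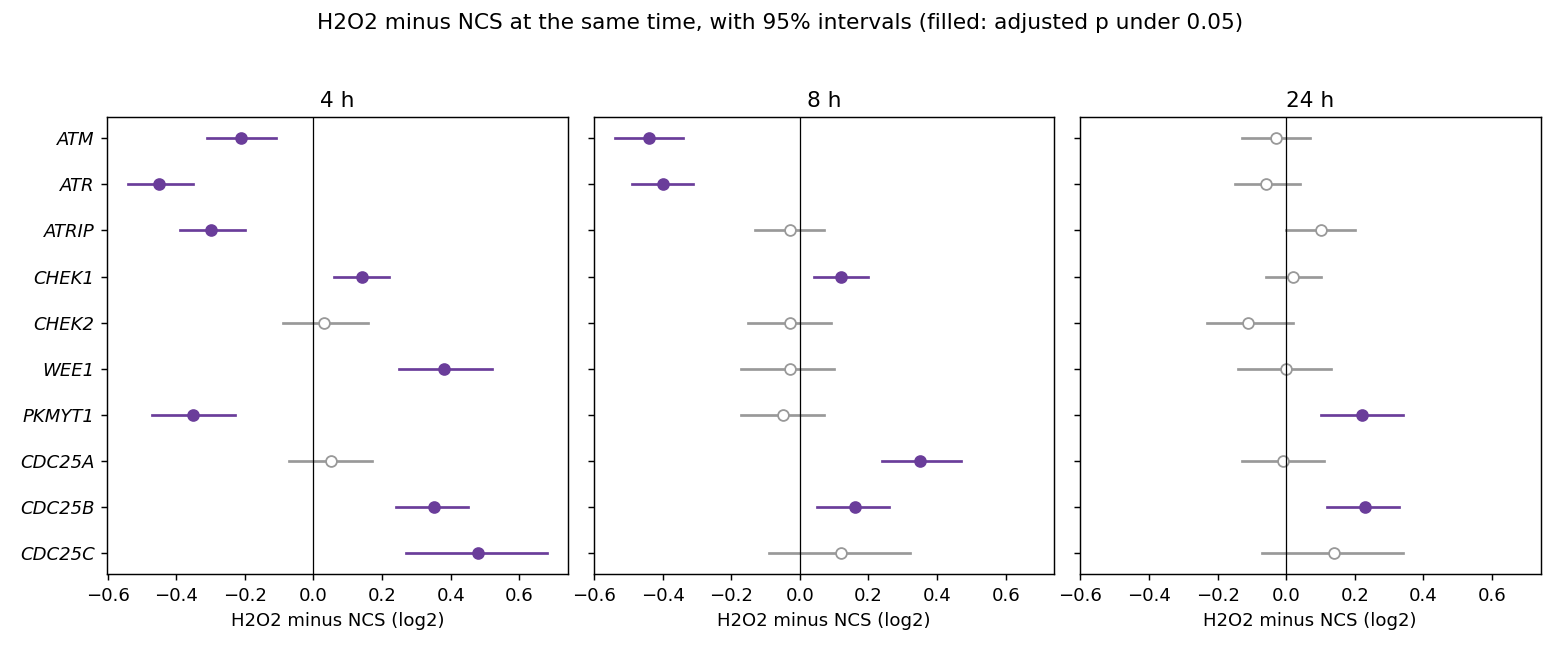
Difference of H2O2 minus NCS (log2) for each of the 10 genes at 4, 8 and 24 h, with 95% intervals from limma; filled points passed at an adjusted p under 0.05. At 4 h, 4 genes lay to the right of 0 and 4 to the left; at 24 h, only PKMYT1 (0.22) and CDC25B (0.23) passed.

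Whether the difference between the stresses itself changed from 4 to 24 h was tested as an interaction, and 5 of the 10 genes passed, 4 upwards (16.6% of all tested genes) and 1 downwards (22.7%). PKMYT1, ATRIP and ATR rose in H2O2 relative to NCS by 0.57, 0.40 and 0.39, with adjusted p-values of 1.69e-05, 0.000115 and 5.65e-05. WEE1 changed by -0.39 (adjusted p = 0.00263). ATM was at the limit with 0.18 (adjusted p = 0.0471), and it did not pass without any 1 of several libraries, for example 0.14 (adjusted p = 0.13) without NCS 24 h replicate 2, nor with quantile normalization (0.17, adjusted p = 0.0749) or without the mean-variance trend (0.18, adjusted p = 0.0625). The other 5 genes did not pass, the nearest being CDC25C with -0.34 (adjusted p = 0.0603). CDC25C did pass with library medians aligned (-0.36, adjusted p = 0.0102), quantile normalization (-0.39, adjusted p = 0.0286), a mean of at least 5 (adjusted p = 0.0227) or only the groups compared (adjusted p = 0.00812). It also passed without H2O2 4 h replicate 3 (-0.40, adjusted p = 0.0425) or NCS 24 h replicate 1 (-0.40, adjusted p = 0.044). CHEK1 passed with aligned medians (-0.14, adjusted p = 0.0277), quantile normalization (-0.18, adjusted p = 0.0106), only the groups compared (-0.12, adjusted p = 0.0298) and without H2O2 24 h replicate 3 (-0.15, adjusted p = 0.0422).

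Over time within a treatment, 8 of the 10 genes fell from 4 to 8 h in H2O2 (27.7% of all tested genes did), and from 8 to 24 h 8 fell (23.2%) while ATM and ATR rose (19.4%). In NCS, 5 fell from 4 to 8 h (7.50%), namely ATRIP, CHEK1, CHEK2, PKMYT1 and CDC25A. CDC25C, at -0.25 (adjusted p = 0.116), passed there with aligned medians (-0.26, adjusted p = 0.0286), a mean of at least 5 (adjusted p = 0.0359) or only the groups compared (adjusted p = 0.0207). From 8 to 24 h, 8 fell (15.0%) and ATM rose (14.9%). Of the NCS steps from 4 to 8 h, that of CHEK2 (-0.21, adjusted p = 0.0185) did not pass without NCS 4 h replicate 1 (-0.21), NCS 4 h replicate 2 (-0.19), NCS 8 h replicate 2 (-0.21) or NCS 8 h replicate 3 (-0.21). In H2O2 the step of PKMYT1 from 4 to 8 h (-0.19, adjusted p = 0.00892) did not pass without H2O2 4 h replicate 1 (-0.15, adjusted p = 0.0576), and that of CDC25B (-0.20) did not pass with only the groups compared (adjusted p = 0.0527).

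Genes around the 10 were counted in lists compiled by hand, to be read against all tested genes. At 4 h 19.7% of these were lower and 26.2% higher in H2O2, and 9.72% lower and 7.47% higher in NCS. At 24 h 19.9% were lower and 20.2% higher in H2O2, and 18.4% lower and 19.6% higher in NCS. Sensors and mediators, which act with ATM and ATR, had 16 of 21 measured genes lower and 3 higher at 24 h in each treatment. The list median was -0.57 in H2O2 and -0.60 in NCS, against 0 over all genes. The lowest was CLSPN, the adaptor through which ATR phosphorylates CHEK1, with -1.81 (SE 0.05, adjusted p = 2.25e-15) in H2O2 and -1.63 (SE 0.05, adjusted p = 5.44e-15) in NCS. The highest in H2O2 was RAD50, of the complex that brings ATM to breaks, with 0.25 (adjusted p = 9.27e-05), and in NCS it was at 0.19 (adjusted p = 0.00166). CLSPN also differed early, with -0.43 in H2O2 at 4 h (adjusted p = 6.65e-07) and 0.02 in NCS at 4 h (adjusted p = 0.92).

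The other kinases of the family of ATM and ATR and the chaperones that keep them stable had 7 of 9 genes lower in H2O2 at 24 h (median -0.23) and 8 of 9 in NCS (median -0.32). At 4 h, 7 of 9 were lower in H2O2 (median -0.17), and in NCS 2 were lower and 1 higher (median -0.01), where 9.72% and 7.47% of all tested genes were. PRKDC, the DNA-PK catalytic subunit, which acts in end joining, was at -0.41 in H2O2 at 4 h (adjusted p = 4.67e-08) and at 0.02 in NCS at 4 h (adjusted p = 0.939). At 24 h it was at -0.48 and -0.57. TELO2, a chaperone of this kinase family, was at -0.60 in H2O2 and -0.57 in NCS at 24 h. The smallest differences that passed at 24 h were those of RUVBL1 in H2O2 (-0.14) and SMG1 in NCS (-0.10).

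Transcripts of genes whose proteins control CDC25 and WEE1 by binding, phosphorylation or degradation went both ways. Of 28 genes, 17 were lower and 5 higher in H2O2 at 24 h (median -0.11), and 12 were lower and 6 higher in NCS (median -0.07). The counts of higher genes were near the shares of all tested genes, 20.2% in H2O2 and 19.6% in NCS, and those of lower genes were above 19.9% and 18.4%. PLK1, the mitotic kinase that activates CDC25C and marks WEE1 for degradation, was at -1.25 (adjusted p = 1.01e-07) in NCS and -0.31 (adjusted p = 0.0214) in H2O2 at 4 h. Its values at 24 h were -2.87 in NCS and -2.30 in H2O2. PLK3, a stress-responsive relative, was higher in all 6 comparisons, from 0.74 in H2O2 at 4 h to 1.07 in NCS at 4 h, with 0.81 and 0.76 at 24 h in H2O2 and NCS. PPM1D, the phosphatase that removes checkpoint phosphorylation, is named after its values were seen. It was higher in both treatments. In H2O2 the difference was 0.92 (adjusted p = 1.81e-09) at 4 h and 0.40 (adjusted p = 4.28e-05) at 24 h. In NCS it was 0.79 (adjusted p = 6.37e-08) and 0.28 (adjusted p = 0.00186).

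The CDKs on which WEE1, PKMYT1 and the CDC25 proteins act, with their cyclins and CKS subunits, were all lower at 24 h, 9 of 9 in both treatments. The list medians were -1.59 in H2O2 and -1.79 in NCS, beyond the median of the 10 genes, -0.92 in both. CDK1 was 10.72 ± 0.04 (SD, n = 3) in untreated cells, 9.13 ± 0.08 in H2O2 at 24 h and 8.93 ± 0.06 in NCS at 24 h. CCNA2, cyclin A2, was lowest, with -2.14 (adjusted p = 4.96e-13) in H2O2 and -2.46 (adjusted p = 7.71e-14) in NCS, and CCNE1, cyclin E1, changed least, with -0.56 and -0.59. CDKN1A, which encodes the CDK inhibitor p21, was 14.12 ± 0.03 in untreated cells and 15.69 ± 0.02 in H2O2 and 15.60 ± 0.03 in NCS at 24 h.

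**Figure D4:**
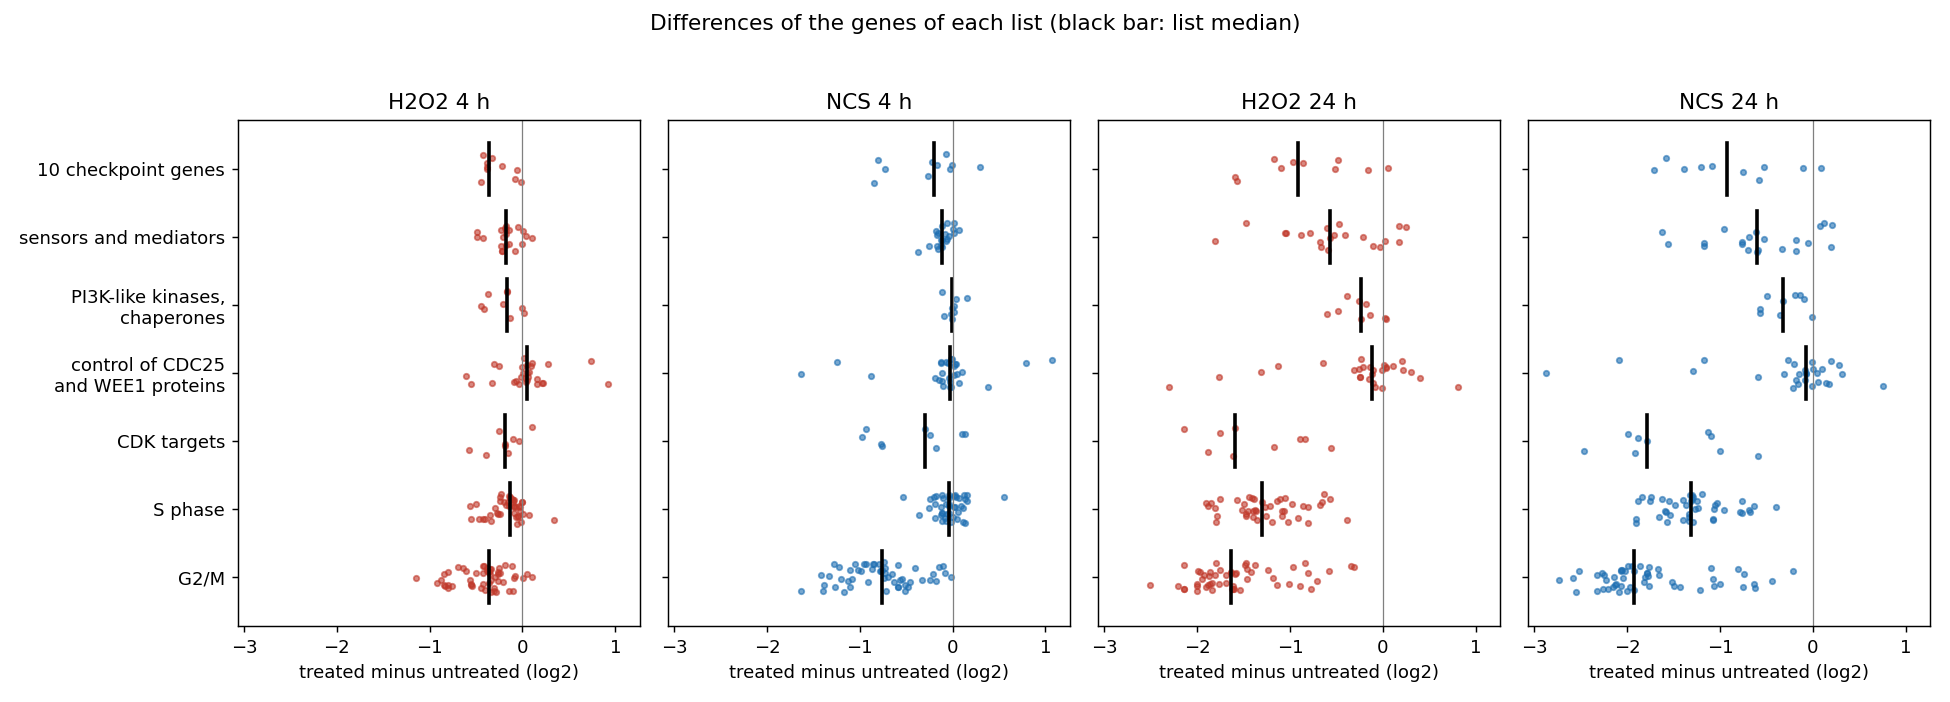
Treated minus untreated differences (log2) of single genes, 1 point each, in the 10 checkpoint genes and 6 lists, for H2O2 and NCS at 4 and 24 h, with a black bar at the list median. The medians of the S phase list were near 0 at 4 h (-0.13 and -0.04) and fell to -1.30 and -1.31 by 24 h, while those of the G2/M list were -0.36 and -0.76 at 4 h and reached -1.63 and -1.93 by 24 h.

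Genes of the proliferating state were also lower at 24 h in both treatments. In a published list of genes that peak in S phase, 22 of 43 were lower and 1 higher in H2O2 at 4 h (median -0.13), and 12 lower and 3 higher in NCS at 4 h (median -0.04). The 3 higher ones were near the 7.47% of all tested genes. All 43 were lower at 24 h in both treatments (medians -1.30 and -1.31). In the G2/M list, from which the checkpoint genes were taken out, 47 of 53 were lower in H2O2 at 4 h (median -0.36), 52 of 53 in NCS at 4 h (median -0.76) and all 53 in both at 24 h (medians -1.63 and -1.93). At 24 h the S phase genes ran from CDCA7 at -1.90 and -1.91 in H2O2 and NCS to PCNA at -0.38 and -0.40. The G2/M genes ran from MKI67, the Ki-67 proliferation antigen, at -2.51 and -2.73 to CTCF at -0.31 in H2O2 and HN1 at -0.21 in NCS. These lists share CLSPN, CDK1, CKS2 and a few other genes with those above. In bulk RNA, fewer cells in a phase and less RNA per cell cannot be told apart, and the part of the S and G2/M genes in the falls of the 10 genes was not tested.

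For the 5 checkpoint genes that were differentially expressed, the 11681 genes with a mean value of at least 5 were searched for the 3 with the most similar differences. Likeness was the root-mean-square distance over the 6 treated-minus-untreated differences, which share the untreated libraries. CDC25A was nearest to ATAD2 (distance 0.078 log2 units), EZH2 (0.095) and DTL (0.101). PKMYT1 was nearest to CHAF1B (0.103), CDC45 (0.124) and CHTF18 (0.126), and these 3 had differences of 0.16, 0.09 and 0.19 in NCS at 4 h beside 0.29 for PKMYT1. CDC25C was nearest to DEPDC1B (0.088), RACGAP1 (0.101) and C15orf23 (0.113). WEE1 was nearest to MXD3 (0.095), SHISA3 (0.096) and ECT2 (0.107), and CDC25B to LBR (0.089), CKS2 (0.105) and ECT2 (0.120). Among the 10 genes themselves, the closest pairs were WEE1 and CDC25B (0.141), ATRIP and CHEK1 (0.143) and ATM and ATR (0.150), and the farthest was ATM and CDC25C (1.125). WEE1 was thus nearer to CDC25B, the phosphatase that opposes it, than to PKMYT1 (0.605).

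**Figure D5:**
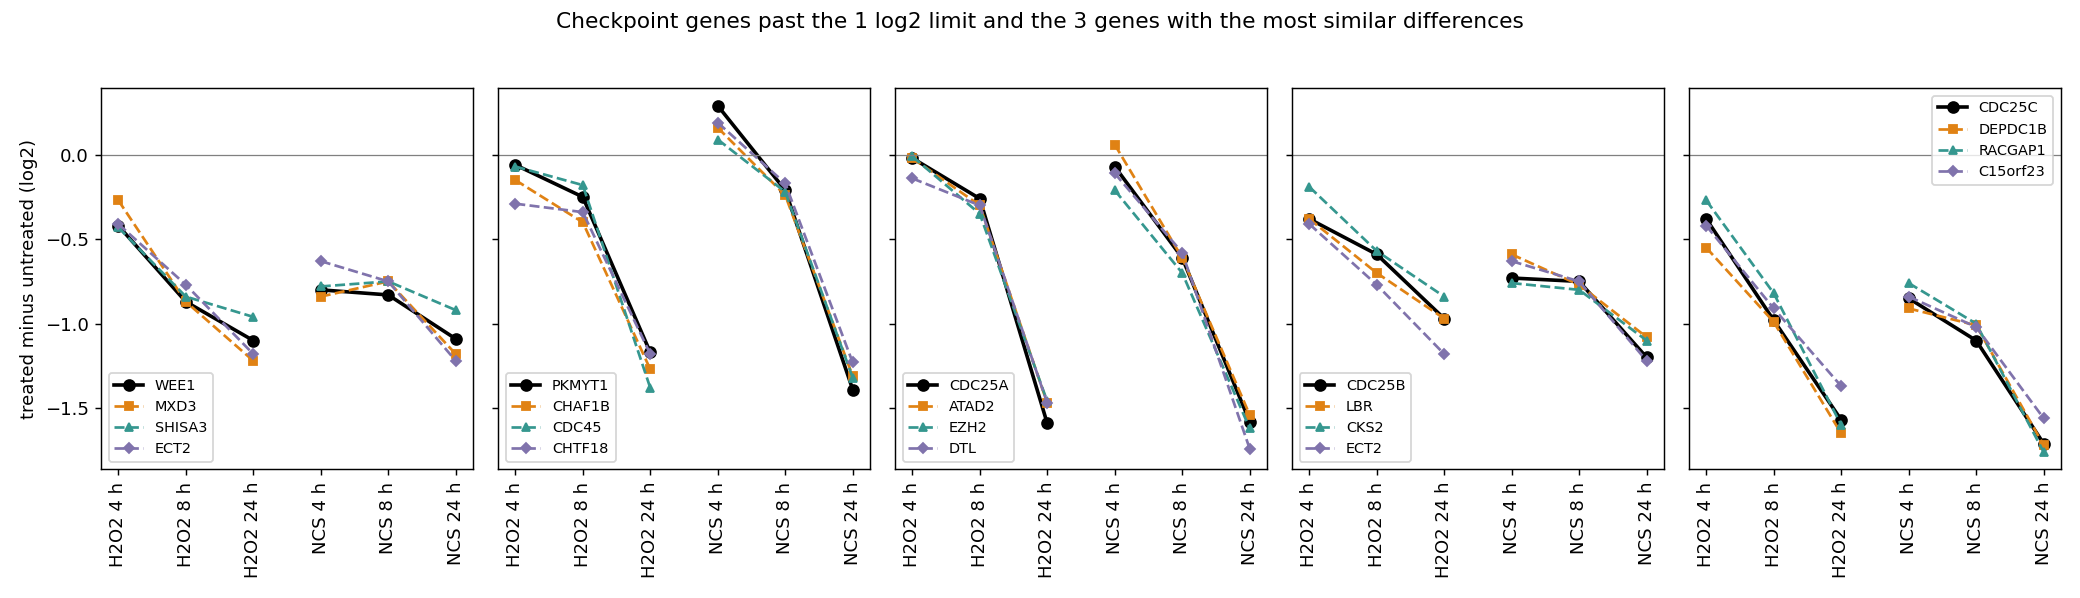
Treated minus untreated differences (log2) over the 6 treated groups for the 5 differentially expressed checkpoint genes (black) and the 3 genes nearest to each (dashed, coloured). CDC25A and its neighbours ATAD2, EZH2 and DTL stayed between -0.35 and 0.06 in H2O2 at 4 and 8 h and in NCS at 4 h and were at -1.46 or below at 24 h, while WEE1 and CDC25B were at -0.80 and -0.73 in NCS at 4 h.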

How the data were processed

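Bulk RNA-seq (stranded mRNA libraries, paired ends) was used from 21 libraries. Per the labels, the submitters' processing notes name HISAT2, HTSeq, DESeq2 and build hg19; annotation and the strand setting of the counting are not given in the sources used here. The authors deposited log2 values, namely the rLog values that DESeq2 gives, calculated over all libraries. They ran from -2.314 to 20.307.

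The 10 genes and all lists were chosen with earlier results of these data known. Genes listed at 0 in every library (3674) were left out. Date-like entries had replaced 28 gene names, and 2 names occurred on several lines. The 7 groups went into 1 limma fit (version 3.58.1, R 4.3.3) with a mean-variance trend. There were 14 contrasts for each gene, and exact permutation tests were two-sided. The fit was tested on simulated data. Other named genes were the 3 nearest to each differentially expressed gene, the extremes of each list at 24 h among those that passed, and CDKN1A, MKI67 and CDK1; genes of this rule that are withheld are not reported here. PPM1D and the gene pairs were added after their values were seen, as were the early times of genes named for 24 h. The S and G2/M lists are Seurat's. Replicate numbers were not used to pair the libraries in the main fit, and the labels call them biological replicates. Promoter windows were RefSeq's and exons those of GENCODE v29. WEE1 and PKMYT1 had no window. Other calculations used Python 3.11.15, pandas 2.3.3 and scipy 1.17.1. Alternatives were quantile normalization, aligned medians, only genes with a mean of 5 or more, limits of 0.58 and 1, only the groups compared, no trend, a replicate block and each library left out.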

Additional observations from a re-analysis of the deposited data

Results flagged for a closer look

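The difference between H2O2 and NCS changed from 4 to 24 h for 5 of the 10 genes by the interaction test in limma, and each is given here because the effect of the same contrast differed between times. The change was 0.57 for PKMYT1 (adjusted p = 1.69e-05), 0.40 for ATRIP (adjusted p = 0.000115), 0.39 for ATR (adjusted p = 5.65e-05), 0.18 for ATM (adjusted p = 0.0471) and -0.39 for WEE1 (adjusted p = 0.00263). Over all tested genes, 16.6% passed upwards and 22.7% downwards, and the 5 of 10 genes are to be read against both shares together. ATM was at the limit and did not pass under several alternatives, for example quantile normalization (0.17, adjusted p = 0.0749).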

How the results depend on the processing

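Of 1740 pairs of a checkpoint gene's result and an alternative, 1660 kept their direction and their side of the threshold, 35 no longer passed, 19 came to pass and 26 changed sign, none of the latter in a difference that had passed. With only the groups compared, 3 genes instead of 5 differed between H2O2 and NCS at 8 h and 1 instead of 2 at 24 h; CHEK1, CDC25B and, at 24 h, PKMYT1 were lost. The same fit lost ATM and CDC25B from 4 to 8 h and WEE1 from 8 to 24 h in H2O2, and in it ATR in NCS at 24 h, CDC25C from 4 to 8 h in NCS and CHEK1 and CDC25C in the interaction came to pass. With a log2 difference over 0.58 as well, the counts against untreated cells in H2O2 were 0 at 4 h and 3 at 8 h, and in NCS 3 and 4. With a limit of 1 they were 0, 0 and 4 in H2O2 at 4, 8 and 24 h and 0, 1 and 5 in NCS. Between H2O2 and NCS and for the interaction both limits left 0. From 4 to 8 h they left 1 and 0 in H2O2 and 0 in NCS, and from 8 to 24 h 4 and 1 in H2O2 and 3 and 1 in NCS. Leaving out each library, counts for H2O2 against NCS at 24 h ran from 1 to 2, at 8 h from 4 to 5 and for the interaction from 4 to 6. Quantile normalization turned CDC25A in H2O2 at 4 h to 0.04, ATR in NCS to 0.01 at 4 h and 0.00 at 8 h, and ATR from 4 to 8 h in H2O2 to -0.01. Aligned medians turned CHEK1 in H2O2 against NCS at 24 h to -0.01. Sign changes on leaving out a library gave these ranges: in H2O2 at 4 h CDC25A -0.06 to 0.03, in NCS at 4 h ATR -0.02 to 0.01 and ATRIP -0.06 to 0.00, from 4 to 8 h ATR in H2O2 -0.04 to 0.06 and in NCS WEE1 -0.05 to 0.00 and CDC25B -0.05 to 0.00. For H2O2 against NCS they were CHEK2 0.00 to 0.06 at 4 h, at 8 h ATRIP -0.05 to 0.02, CHEK2 -0.08 to 0.01, WEE1 -0.14 to 0.03 and CDC25C -0.04 to 0.24, and at 24 h ATM -0.07 to 0.00, CHEK1 0.00 to 0.05, WEE1 -0.03 to 0.03 and CDC25A -0.05 to 0.06. For the interaction CDC25A ran from -0.11 to 0.01. The causes were not tested.

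Whether the replicate numbers pair the libraries cannot be decided from the correlations of their deviations from the group means. In 0 of 13 comparisons did every same-numbered pair correlate above 0.1, but 12 of 21 libraries correlated best with their own number. Same-numbered pairs ran from 0.069 to 0.113 for H2O2 against NCS at 24 h. For NCS at 4 h against untreated cells they ran from -0.113 to 0.029. With the number as a replicate block, 4 instead of 5 genes passed the interaction test, ATM being lost at 0.18 (adjusted p = 0.0603), and no other count changed. The unknown depth limits what can be said of the small differences.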
